A study of Homo sapiens with 6 samples.

Results

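Mitochondrial protein import genes were followed after beta-catenin knockdown in MM1.S cells, an established line from human multiple myeloma. The genes were those whose symbol begins with TIMM or TOMM, pseudogenes left out, together with PAM16, DNAJC19, GRPEL1, HSPA9, SAMM50, MTX1, MTX2, CHCHD4, GFER, PMPCA and PMPCB. The array annotation gave 34 of these genes a probe set that names no other gene, of 19775 genes with such a probe set in all, and 33 of the 34 were bright enough to be tested. The knockdown culture carried a lentiviral beta-catenin shRNA (titled pKLO beta-catenin shRNA) and the other a control shRNA (titled pKLO GFP control). Both were sorted for GFP and grown as triplicate cultures. Total RNA was read on 1-colour Affymetrix arrays, 3 of the knockdown and 3 of the control. The labels describe 1 cell line and no separate infections, so the p-values rest on the spread between cultures of one sorted population per shRNA. They give neither the hairpin sequence nor the number of hairpins. A remark on maternal transcripts in the labels goes against the named line and was set aside.

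Nearly all mitochondrial proteins are made in the cytosol and enter through the translocase of the outer membrane, the TOM complex. From there the SAM complex inserts beta-barrel proteins into the outer membrane, the small TIM chaperones carry hydrophobic precursors across the intermembrane space, the TIM22 complex inserts carrier proteins into the inner membrane, and the TIM23 complex with its ATP-driven motor pulls presequence proteins into the matrix. A disulfide relay traps small cysteine-rich proteins in the intermembrane space, and a processing peptidase removes presequences in the matrix. Plasma cells and myeloma cells secrete large amounts of immunoglobulin and rely on mitochondria for the energy and precursors this takes.

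The values are log2 expression per probe set, as deposited, with a floor at 4. A gene was read by the brightest of its probe sets, and values of different genes are therefore not compared with each other. CTNNB1, the gene of beta-catenin, read 6.39, 6.53 and 6.34 in the knockdown arrays, against 7.82, 7.67 and 7.75 in the control arrays. It fell by 1.33 on the log2 scale (SE 0.10, limma, adjusted p = 9.04e-12). Its other probe sets, both dimmer in control arrays, went against this or did not pass: one rose by 0.33 and the other differed by -0.07 (limma, adjusted p = 0.0390 and 0.716 over all probe sets). Array medians were 5.50 to 5.54 in the knockdown and 5.44 to 5.50 in the control arrays. Of the plasma cell markers checked, 9 of 9 were above the brightness filter, with a mean log2 value of 9.84 to 9.88 in knockdown and 9.72 to 9.80 in control arrays, 3 of them called higher and 3 lower. Markers of other cell types were also read above the filter: 4 of 5 for fibroblasts, 2 of 5 for myeloid cells, 2 of 5 for epithelial cells, 1 of 4 for earlier B cells, 1 of 6 for T and NK cells and 1 of 2 for erythroid cells. The collagen gene COL1A1 averaged 8.01 in knockdown and 7.91 in control arrays and was not called. The globin gene HBB averaged 9.11 in knockdown and 8.86 in control arrays and was called higher (limma, adjusted p = 0.0250), as was the myeloid receptor CSF1R, at 5.83 in knockdown and 5.52 in control arrays (limma, adjusted p = 0.0332). The part of other cells in the results was not tested. In bulk RNA, fewer cells of a kind and less RNA per cell cannot be told apart.

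Most import genes were lower in the knockdown. Of 33 tested, 21 were lower, 4 were higher and 8 did not pass the test (limma, adjusted p under 0.05 over all 12939 genes tested). That is 63.6% lower and 12.1% higher, where 22.0% of all genes tested were called lower, 25.3% higher and 47.3% in either direction. The median change was -0.41 for the import genes and 0.05 for all genes tested. The groups did not overlap for 25 import genes (75.8%, against 54.4% of all genes tested). All 3 knockdown values lay below all 3 control values for 21 import genes (63.6%, against 24.5% of all genes tested). The reverse held for 4 import genes, where 29.9% of all genes tested did so. TIMM8A is 1 of these 4, and its other probe set was called lower. Falls of at least 1.5-fold were found for 9 import genes (27.3%, against 9.54% of all genes tested), and 3 of these reached 2-fold, where 3.39% of all genes tested did. TOMM20 was the 1 import gene that rose by at least 1.5-fold, as 8.93% of all genes tested did. The falls were not uniform, and each complex held members that fell beside members that did not pass or rose, except the disulfide relay, where both members fell, and the single genes TOMM34 and TIMMDC1.

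**Figure D1:**
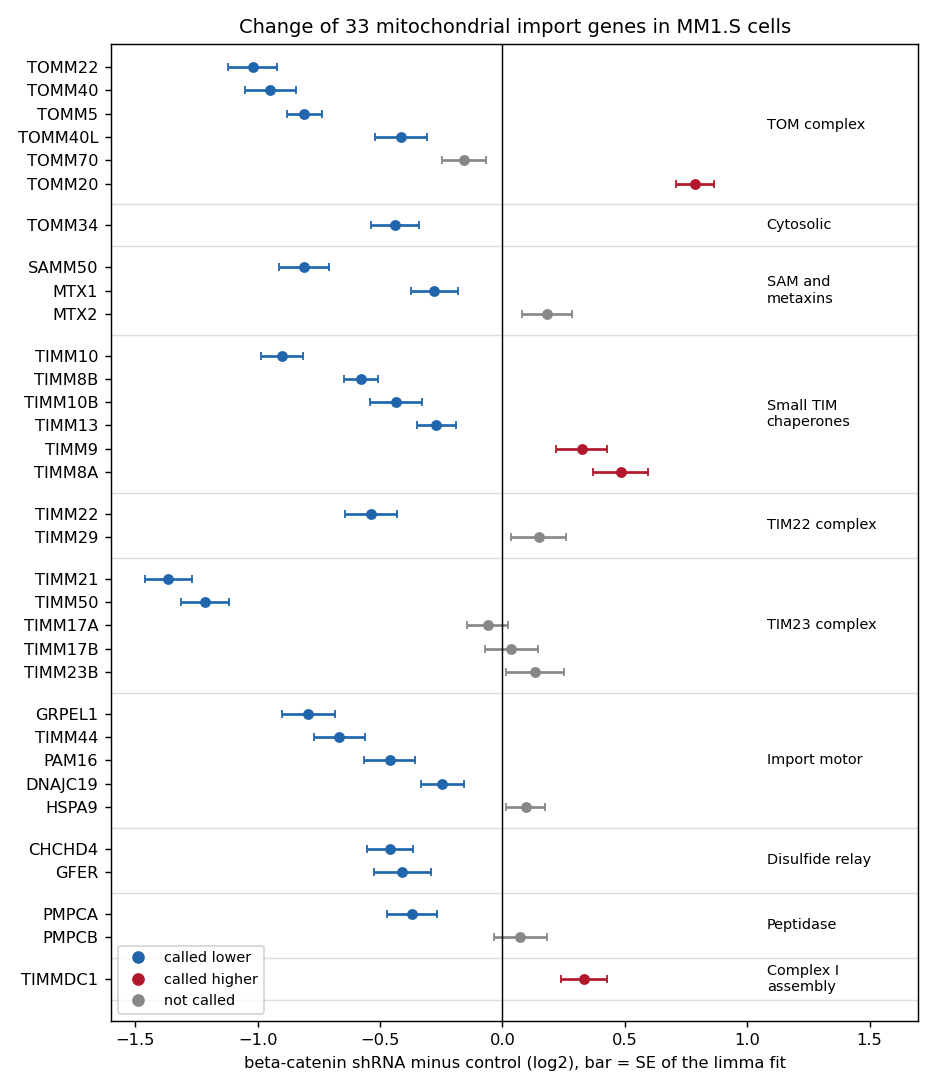
Change of each of the 33 import genes tested, beta-catenin shRNA minus control on the log2 scale (horizontal axis), with the SE of the limma fit as a bar, grouped by complex down the page. The 21 genes called lower are blue, the 4 called higher are red and the 8 not called are grey. TIMM21 lies farthest left at -1.37 and TOMM20 farthest right at 0.79.

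**Figure D2:**
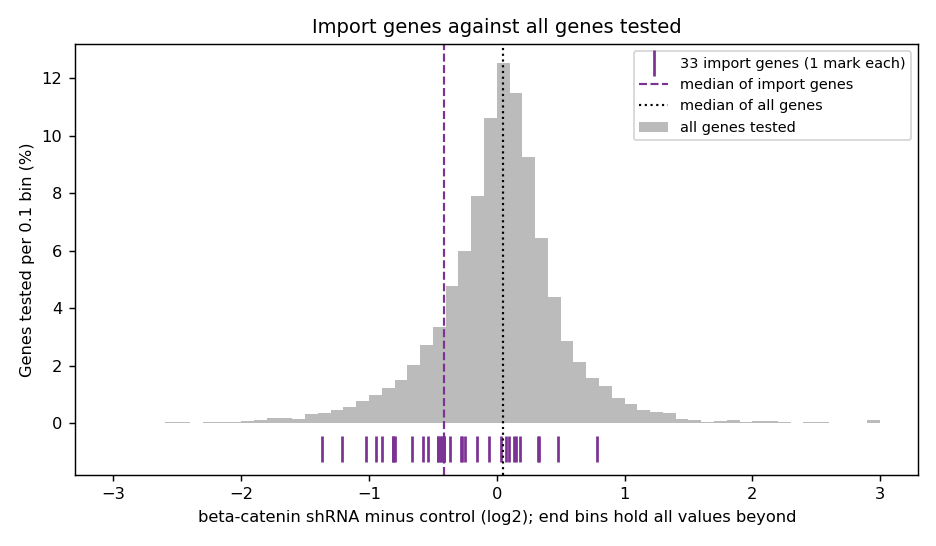
Distribution of changes (beta-catenin shRNA minus control, log2, horizontal axis) over the 12939 genes tested, as the percentage in each 0.1 bin (grey), with 1 mark for each of the 33 import genes below it. The dashed line at -0.41 is the median of the import genes and the dotted line at 0.05 that of all genes.

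In the TOM complex, 4 of 6 genes tested were lower, 1 receptor was higher and 1 receptor was not called. TOMM22, the central receptor that organises the complex, read 7.50, 7.57 and 7.37 in knockdown arrays, against 8.36, 8.51 and 8.63 in control arrays. It fell by 1.02 (SE 0.10, 2.03-fold, limma, adjusted p = 7.49e-10). TOMM20, the receptor that first binds presequences, went the other way. It read 9.91, 9.96 and 9.91 in knockdown arrays, against 9.22, 8.98 and 9.23 in control arrays. The groups did not overlap, and TOMM20 rose by 0.79 (SE 0.08, 1.73-fold, limma, adjusted p = 1.02e-09). It was the largest rise among the 33. The 2 presequence receptors thus differed in direction in all 3 arrays of each group. TOMM70, the receptor for carrier precursors handed over by cytosolic chaperones, differed by -0.16 on its brightest probe set (limma, adjusted p = 0.150), while its dimmer probe set fell by 0.69 (limma, adjusted p = 3.53e-04 over all probe sets).

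TOMM40, the beta-barrel channel of the complex, read 7.21, 7.46 and 7.21 in knockdown arrays, against 8.39, 8.16 and 8.18 in control arrays, and fell by 0.95 (SE 0.10, limma, adjusted p = 7.93e-09). Its paralog TOMM40L read 6.49, 6.43 and 6.35 in knockdown arrays, against 6.92, 6.76 and 6.84 in control arrays, and fell by 0.42 (SE 0.11, limma, adjusted p = 0.00186). TOMM5, a small subunit beside the channel, read 9.51, 9.65 and 9.42 in knockdown arrays, against 10.39, 10.30 and 10.31 in control arrays. It fell by 0.81 (SE 0.07, limma, adjusted p = 9.39e-11). None of these 3 genes had overlapping groups. TOMM34, a cytosolic co-chaperone of the HSP70 and HSP90 chaperones despite its name, read 7.27, 7.35 and 7.37 in knockdown arrays, against 7.81, 7.69 and 7.81 in control arrays, and fell by 0.44 (limma, adjusted p = 5.03e-04). The small subunits TOMM6 and TOMM7 have only probe sets that also name another gene, and TOMM20L has no probe set in the annotation used here, so none of the 3 was read.

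In the outer membrane's sorting machinery, SAMM50, the core of the SAM complex that inserts beta-barrel proteins such as TOMM40, fell. It read 7.25, 7.45 and 7.17 in knockdown arrays, against 8.17, 8.07 and 8.05 in control arrays, a change of -0.81 (SE 0.10, limma, adjusted p = 9.89e-08). Its partners, the metaxins, were not alike. MTX1 read 7.93, 8.04 and 7.85 in knockdown arrays, against 8.29, 8.19 and 8.18 in control arrays, and fell by 0.28 (limma, adjusted p = 0.0162). That call was lost without beta-catenin shRNA replicate 1 (adjusted p = 0.0697) and without beta-catenin shRNA replicate 3 (adjusted p = 0.0794). MTX2 read 7.92, 7.99 and 7.76 in knockdown arrays, against 7.78, 7.59 and 7.76 in control arrays, which overlap, and was not called (0.18, SE 0.10, limma, adjusted p = 0.142).

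**Figure D3:**
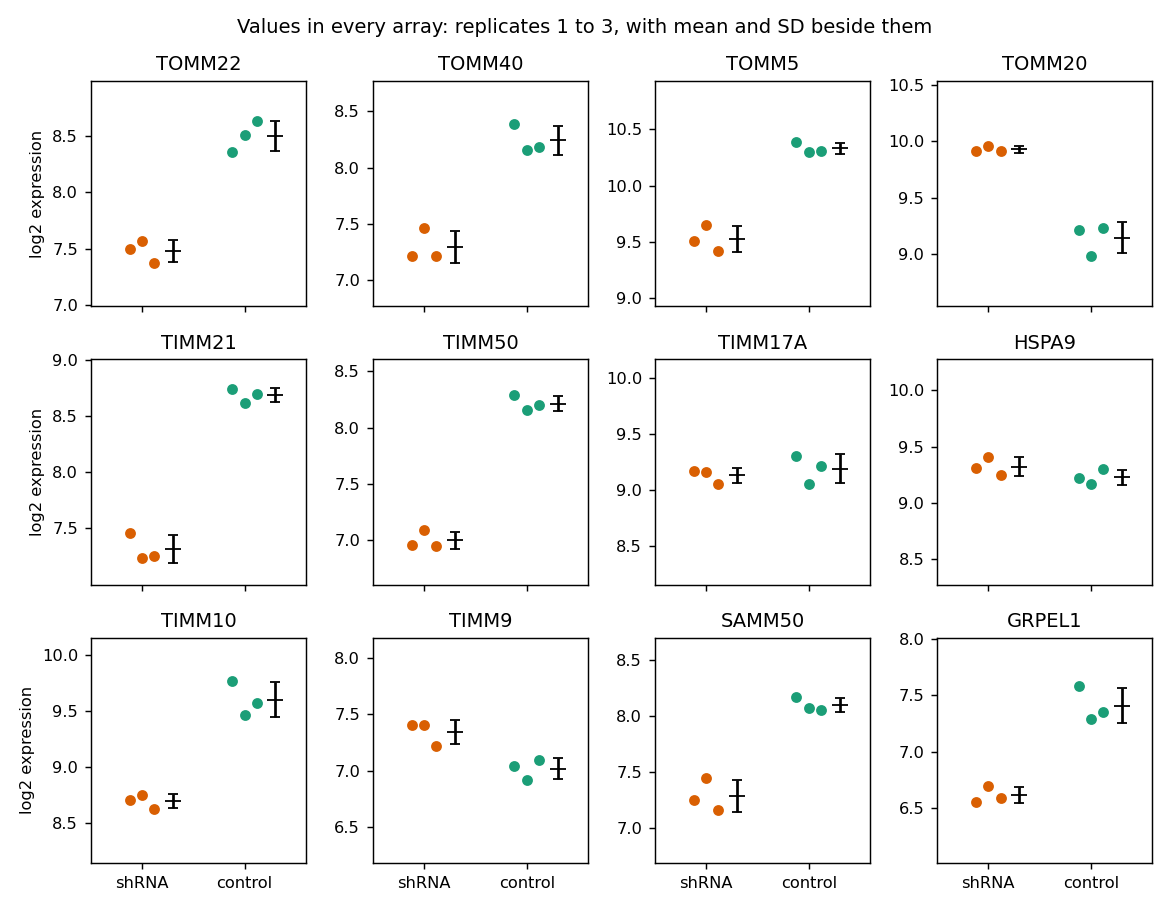
Log2 expression (vertical axis, 1 range of 2 log2 units in every panel) of 12 import genes in each array, beta-catenin shRNA left and control right, with the mean and SD of 3 arrays as a bar beside the points. The groups do not overlap in 10 of the panels; they overlap for TIMM17A and HSPA9. TOMM20 and TIMM9 are the genes with the higher values in the knockdown.

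All 6 small TIM chaperones passed the test on the probe sets read, 4 lower and 2 higher. TIMM10, which forms a ring-shaped hexamer with TIMM9, read 8.71, 8.75 and 8.63 in knockdown arrays, against 9.77, 9.46 and 9.57 in control arrays. It fell by 0.90 (SE 0.09, 1.87-fold, limma, adjusted p = 4.15e-10). Its partner in the ring, TIMM9, was higher: 7.40, 7.40 and 7.22 in knockdown arrays, against 7.04, 6.92 and 7.10 in control arrays. TIMM9 rose by 0.32 (SE 0.10, limma, adjusted p = 0.0120). Without beta-catenin shRNA replicate 1 or without beta-catenin shRNA replicate 2 this rise no longer passed (adjusted p = 0.0703 and 0.0578). TIMM10B, which holds the carrier ring at the TIM22 complex, and TIMM13, the ring partner of TIMM8A and TIMM8B, fell by 0.44 and 0.27 on the probe sets read (limma, adjusted p = 0.00102 and 0.00651). For TIMM10B the direction depends on the probe set: with those marked _x_ or _s_ (probes that can match several transcripts) read last it was called higher, at 0.32 (limma, adjusted p = 0.0246), and averaged over its probe sets it was not called (-0.06, limma, adjusted p = 0.641). The call of TIMM13 was lost without beta-catenin shRNA replicate 1 (adjusted p = 0.0556) and when its probe sets were averaged (-0.16, adjusted p = 0.265).

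TIMM8B, a partner of TIMM13, read 9.80, 9.87 and 9.90 in knockdown arrays, against 10.56, 10.45 and 10.29 in control arrays, and fell by 0.58 on this probe set (SE 0.07, limma, adjusted p = 5.56e-08). Averaged over its probe sets TIMM8B was not called (-0.20, limma, adjusted p = 0.0580), and with those marked _x_ or _s_ read last the value was 0.18 (limma, adjusted p = 0.196). TIMM8A, the paralog whose loss causes the human deafness-dystonia syndrome, read 6.07, 6.26 and 6.16 in knockdown arrays, against 5.64, 5.70 and 5.71 in control arrays. On this probe set TIMM8A rose by 0.48 (SE 0.11, limma, adjusted p = 7.63e-04). Its other probe set fell by 0.97 (limma, adjusted p = 8.78e-05 over all probe sets). In control arrays that other probe set was the brighter one, at a mean of 5.89 against 5.68. Over all 6 arrays it is dimmer and below the filter because its knockdown mean was 4.92. Which TIMM8A probe set was read thus depended on the change itself. The average over both was called lower (-0.24, limma, adjusted p = 0.0265), so no direction is settled for TIMM8A. In the fit over all probe sets, TIMM8A was the only gene among the 33 with probe sets called in both directions. The brightness filter lay at 5.49 log2, and the means of the TIMM8A probe sets over all arrays were 5.92 and 5.40.

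The TIM23 complex held both the largest falls of all import genes and members that did not pass. TIMM21, which links the translocase to the TOM complex and to respiratory chain assembly, read 7.46, 7.24 and 7.26 in knockdown arrays, against 8.74, 8.62 and 8.70 in control arrays. It fell by 1.37 (SE 0.10), to 38.8% of the control level (limma, adjusted p = 9.85e-13). TIMM50, the inner membrane receptor that takes presequences over from the TOM complex, read 6.96, 7.09 and 6.95 in knockdown arrays, against 8.29, 8.15 and 8.20 in control arrays. It fell by 1.22 (SE 0.10), to 43.1% of the control level (limma, adjusted p = 2.01e-11). For both genes every knockdown value lay more than 1 log2 unit below every control value.

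The alternative channel subunits TIMM17A and TIMM17B were not called. TIMM17A read 9.17, 9.16 and 9.06 in knockdown arrays, against 9.30, 9.05 and 9.22 in control arrays, a change of -0.06 (SE 0.08, limma, adjusted p = 0.577). TIMM17B read 7.37, 7.42 and 7.47 in knockdown arrays, against 7.61, 7.28 and 7.25 in control arrays, a change of 0.04 (SE 0.11, limma, adjusted p = 0.811). Both had overlapping groups, and none of the other 4 probe sets of these genes was called. TIMM23B, a near-identical copy of the channel gene TIMM23, differed by 0.13 (limma, adjusted p = 0.375). The single probe set that names TIMM23 alone lay below the filter, at a mean of 4.77 ± 0.16 in knockdown and 4.58 ± 0.21 in control arrays (SD, n = 3 each), and was not tested. The 3 probe sets that name both copies are brighter and all were called lower, with changes of -0.80 to -0.66, but cannot be assigned to either copy.

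In the TIM22 complex, TIMM22, the channel that inserts metabolite carriers, read 6.95, 6.95 and 6.77 in knockdown arrays, against 7.53, 7.31 and 7.44 in control arrays. It fell by 0.54 (SE 0.11, limma, adjusted p = 9.95e-05). TIMM29, a subunit of the human complex, did not pass the test, with a difference of 0.15 (limma, adjusted p = 0.295).

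Of the 5 motor genes, 4 were lower and the motor ATPase itself was not called. GRPEL1, the nucleotide exchange factor of the motor, read 6.56, 6.70 and 6.59 in knockdown arrays, against 7.58, 7.29 and 7.35 in control arrays. It fell by 0.79 (SE 0.11, limma, adjusted p = 4.24e-07). TIMM44, which anchors the ATPase at the channel, read 6.89, 6.98 and 6.82 in knockdown arrays, against 7.72, 7.51 and 7.46 in control arrays, and fell by 0.67 (SE 0.11, limma, adjusted p = 5.10e-06). Neither gene had overlapping groups. PAM16, which restrains the J-domain protein of the motor, read 6.57, 6.66 and 6.64 in knockdown arrays, against 7.18, 7.01 and 7.06 in control arrays. It fell by 0.46 (limma, adjusted p = 5.47e-04). DNAJC19, a J-domain protein, fell by 0.25 (limma, adjusted p = 0.0203). That call did not hold without beta-catenin shRNA replicate 1 or 3 (adjusted p = 0.0850 and 0.0862), nor when its probe sets, of which the other gave 0.16, were averaged (-0.04, adjusted p = 0.703). HSPA9, the mitochondrial HSP70 called mortalin, had means of 9.32 ± 0.08 in knockdown and 9.23 ± 0.07 in control arrays (SD, n = 3 each) and was not called (0.09, SE 0.08, limma, adjusted p = 0.344). A dim HSPA9 probe set rose by 0.93, while its 3 brighter ones did not pass.

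Both genes of the disulfide relay fell. CHCHD4, the oxidoreductase that folds incoming cysteine-rich proteins, read 7.95, 7.93 and 7.85 in knockdown arrays, against 8.50, 8.28 and 8.32 in control arrays, and fell by 0.46 (SE 0.09, limma, adjusted p = 1.76e-04). GFER, the sulfhydryl oxidase that re-oxidises CHCHD4, read 5.94, 5.84 and 5.93 in knockdown arrays, against 6.51, 6.14 and 6.29 in control arrays, and fell by 0.41 (SE 0.12, limma, adjusted p = 0.00460). Control replicate 1 was the highest array for GFER, and without control replicate 1 the change was -0.31 and the adjusted p 0.0501.

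Of the 2 subunits of the processing peptidase, PMPCA, the substrate-binding one, read 7.47, 7.47 and 7.40 in knockdown arrays, against 7.98, 7.71 and 7.76 in control arrays. It fell by 0.37 (SE 0.10, limma, adjusted p = 0.00341). PMPCB, the catalytic subunit, read 7.81, 8.11 and 7.84 in knockdown arrays, against 8.01, 7.67 and 7.86 in control arrays. These overlap, and PMPCB was not called on this probe set (0.07, SE 0.11, limma, adjusted p = 0.606), while another of its probe sets fell by 0.54 (limma, adjusted p = 0.00488 over all probe sets). TIMMDC1 shares the name of the family but is an assembly factor of respiratory complex I. It read 8.13, 8.31 and 8.17 in knockdown arrays, against 7.93, 7.80 and 7.87 in control arrays, and rose by 0.33 (SE 0.10, limma, adjusted p = 0.00458).

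For 5 pairs, paralogs or partner subunits were compared by their log2 difference within each array. That difference changed by 1.06 for TIMM8A minus TIMM8B (SE 0.11), by -0.53 for TOMM40 minus TOMM40L (SE 0.10), by -0.44 for PMPCA minus PMPCB (SE 0.10) and by -0.46 for MTX1 minus MTX2 (SE 0.06). In each of these 4 pairs the knockdown and control arrays did not overlap, which gives an exact permutation p = 0.1, the smallest 3 against 3 arrays can give, and 0.125 after Benjamini-Hochberg adjustment over the 5 pairs. None passes 0.05, which this exact test cannot reach with 3 against 3 arrays. For TIMM17A minus TIMM17B the change was -0.10 (SE 0.10) with overlapping groups (exact permutation p = 0.5). TIMM8A, TIMM8B and PMPCB each have a further probe set that differs from the one read, which bears on the pairs that hold these genes. The further probe set of TIMM8A fell by 0.97, more than the 0.58 of TIMM8B. That of PMPCB fell by 0.54, more than the 0.37 of PMPCA. The direction of both pairs thus depends on the probe set and is not settled. For TIMM8A the probe set read was itself picked through the change.

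Probe sets within a gene showed how far these values depend on the one that was read. The 34 genes have 63 probe sets, of which 34 were called lower, 6 higher and 23 not called (limma, adjusted over all 54613 probe sets, of which 9.95% were called lower and 13.3% higher). At or above the brightness filter were 55 of the 63, with 33 called lower and 6 higher, where 17.1% of all such probe sets were called lower and 21.2% higher. Of the 21 genes with several probe sets, 8 had at least 2 called lower, and TOMM20 had both called higher. TIMM22 and TOMM22 each had 3 probe sets and all 3 fell, with changes of -0.67 to -0.35 for TIMM22 and -1.198 to -0.88 for TOMM22. TIMM21, TIMM10, TOMM5, GRPEL1 and TIMM44 each had 2 and both fell. SAMM50 had 2 bright probe sets that fell by 0.81 and 0.82 and 2 below the filter that differed by 0.26 and 0.24. TIMM8B and TIMM10B had a second probe set above the filter that did not pass in this fit over all probe sets. These differed by 0.18 and 0.32, against falls of 0.58 and 0.44 on the brightest.

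**Figure D4:**
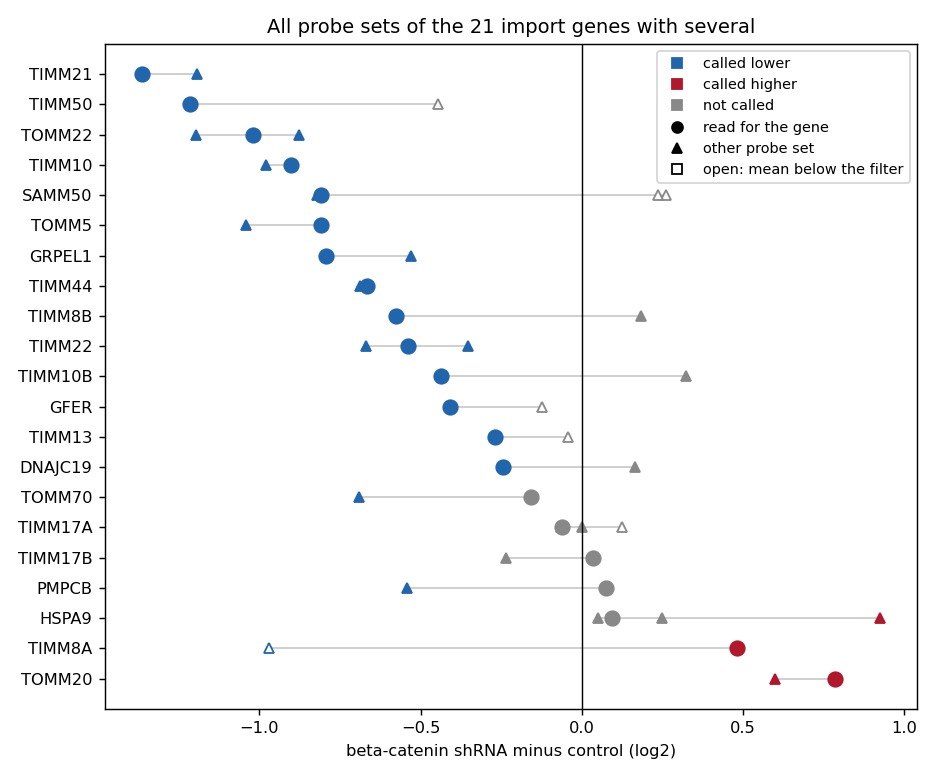
Change on each probe set of the 21 import genes with several (horizontal axis, beta-catenin shRNA minus control, log2). Circles are the probe sets read for the gene, triangles the others, and open symbols those whose mean lies below the filter. Blue is called lower, red called higher and grey not called over all probe sets. TIMM8A has probe sets at 0.48 and -0.97, and the 3 probe sets of TOMM22 lie between -1.198 and -0.88.

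The control arrays were not equally high for the import genes. Control replicate 1 had the highest of the 3 control values for 26 of 33 import genes (78.8%), against 45.0% of all genes tested. The median over the import genes was 7.46, 7.46 and 7.37 in knockdown arrays 1 to 3, against 8.01, 7.80 and 7.87 in control arrays 1 to 3. Without control replicate 1, 20 import genes were called lower and 4 higher, against 19.5% lower and 24.2% higher of all genes tested. The median change of the import genes was then -0.31. As a sign of RNA quality, the log2 excess of the 3' over the 5' control probe set for ACTB averaged 0.578 ± 0.054 in knockdown and 0.669 ± 0.194 in control arrays (SD, n = 3 each, exact permutation p = 0.7). That of GAPDH was 0.284 ± 0.0372 in knockdown and 0.244 ± 0.155 in control arrays (SD, n = 3 each, exact permutation p = 0.8).

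The rest of the pathway and its context were followed in 8 lists drawn up by function, which hold 77 tested genes outside the TIMM and TOMM set. Of these, 41 fell and 9 rose, and the median change was -0.32. The totals include the list of stress and mitochondrial content context, whose 9 tested genes are not import factors. It holds 4 of the genes that fell and 3 of those that rose. The shares of all genes tested to set these and the following counts against are 22.0% lower and 25.3% higher, with a median of 0.05. Among clients of the machinery, 11 of 15 tested substrates of the CHCHD4 relay were lower and 1 was higher (median -0.48; all genes 22.0% lower and 25.3% higher). NDUFB7, a complex I subunit, fell by 0.93 (limma, adjusted p = 7.17e-08), the cysteine-rich protein CHCHD7 by 0.89 and COA6, a copper-handling assembly factor of cytochrome c oxidase, by 0.69. COA5, another assembly factor of that enzyme, rose by 0.41 and was chosen after its value was seen. Of 10 carriers and porins, which the TIM22 and SAM complexes insert, 6 were lower and 1 was higher (median -0.52), against 22.0% lower and 25.3% higher of all genes. The porin VDAC3 fell to 9.49 in knockdown, against 10.51 in control arrays, a change of -1.02 (limma, adjusted p = 1.44e-13). The carnitine carrier SLC25A20 rose by 1.34 and the ADP/ATP carrier SLC25A5 fell by 0.68.

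Of 7 cytosolic chaperones that hold precursors on their way to the TOM complex, 6 were lower and 0 higher (median -0.65), where all genes gave 22.0% lower and 25.3% higher. STIP1, which bridges HSP70 and HSP90, fell by 1.36, HSP90AA1 by 1.19 and HSP90AB1 by 0.56 (limma, adjusted p = 5.06e-13, 8.48e-16 and 5.71e-11). Of 8 MICOS and bridging proteins, which shape the cristae and tie them to the SAM complex, 6 were lower and 0 higher (median -0.47), against 22.0% lower and 25.3% higher of all genes. MICOS10 fell by 0.85, CHCHD3 by 0.78 and APOO by 0.92. Presequence processing and matrix folding had 3 of 9 lower and 0 higher (median -0.16), where all genes gave 22.0% lower and 25.3% higher. With 9 genes the list is small, and its difference from these shares was not tested. The matrix chaperonin genes HSPE1 and HSPD1 fell by 1.29 and 0.71 and the inner membrane peptidase subunit IMMP1L by 1.26, while MIPEP, XPNPEP3, PITRM1, DNAJA3, HSCB and TRAP1 did not pass.

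Of 10 further import factors, 3 were higher, 3 lower and 4 not called (median 0.10), which is near the 25.3% higher and 22.0% lower of all genes. OXA1L, the insertase that places proteins into the inner membrane from the matrix side, rose by 0.66, while MTCH2, an outer membrane insertase, fell by 0.94 and ROMO1, a small protein of the TIM23 complex, by 0.78. Of 9 mitochondrial proteases, 1 was higher and 2 were lower (median -0.09), and the count of lower genes is no more than the 22.0% of all genes gives. LONP1, the matrix protease, rose by 0.94 (limma, adjusted p = 4.83e-11), YME1L1 fell by 0.34 and OMA1 by 0.37. A last list gave the stress and mitochondrial content context, with 3 higher and 4 lower of 9 (median -0.15), beside 25.3% higher and 22.0% lower of all genes. The stress transcription factors DDIT3 and ATF4 rose by 2.55 and 1.72 and their target TRIB3 by 2.17. TFAM, the packaging factor of mitochondrial DNA, and CS, citrate synthase, were chosen after their values were seen and fell by 1.04 and 0.32. The parts of stress signalling and mitochondrial content in the change of the import genes were not tested.

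**Figure D5:**
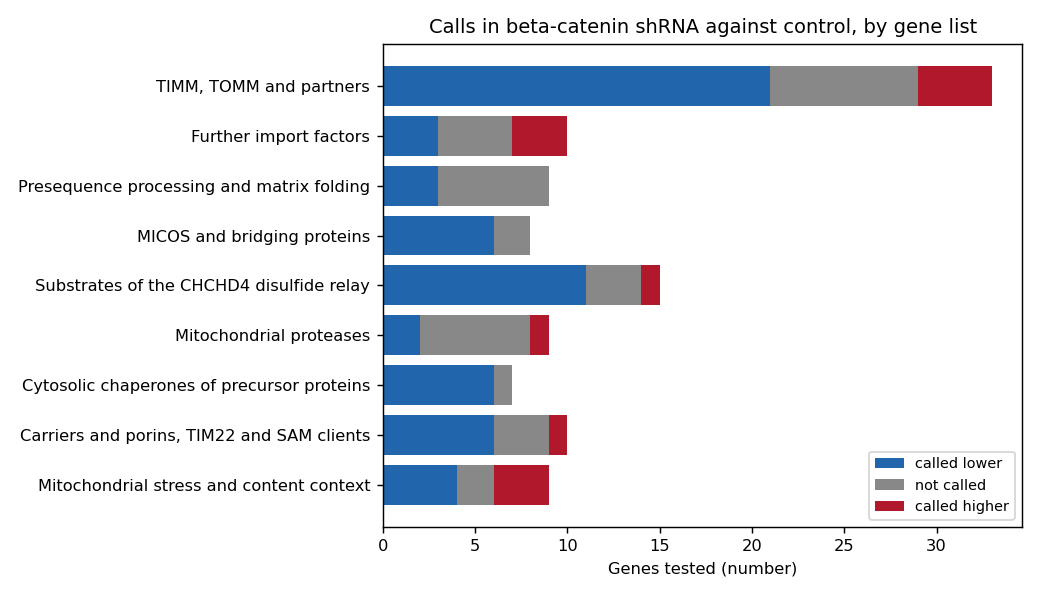
Number of genes tested (horizontal axis) in the TIMM and TOMM set and in each of the 8 other lists, split into called lower (blue), not called (grey) and called higher (red) in beta-catenin shRNA against control. The TIMM and TOMM set has 21, 8 and 4, and that of further import factors has 3, 4 and 3.

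Promoter sequences were taken from RefSeq (GRCh38.p14) for 31 of the 34 genes, as windows of 250 bases before to 50 bases after the gene start. The 5 shown were picked because they belong to genes with the largest falls (TIMM21, TIMM50 and TOMM22), to TIMM10, the member with the most kinds of searched letters among those that fell, and to TOMM20, which rose. Capitals mark matches on either strand to the E-box CACGTG, which MYC and other factors bind, the NRF1 motif, the ETS core CCGGAAG, and the TCF/LEF forms ATCAAAG and TTCAAAG, the letters bound by the DNA-binding partners of beta-catenin. None of these motifs overlapped another in the windows shown.
TIMM21, chr18:74148273-74148572, plus strand: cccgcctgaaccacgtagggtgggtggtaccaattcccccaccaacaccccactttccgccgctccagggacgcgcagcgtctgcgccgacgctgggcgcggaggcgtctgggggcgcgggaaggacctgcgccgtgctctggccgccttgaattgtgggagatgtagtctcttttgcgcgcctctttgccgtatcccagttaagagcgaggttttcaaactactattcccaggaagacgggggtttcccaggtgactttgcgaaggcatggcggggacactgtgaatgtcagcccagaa
TIMM50, chr19:39480588-39480887, plus strand: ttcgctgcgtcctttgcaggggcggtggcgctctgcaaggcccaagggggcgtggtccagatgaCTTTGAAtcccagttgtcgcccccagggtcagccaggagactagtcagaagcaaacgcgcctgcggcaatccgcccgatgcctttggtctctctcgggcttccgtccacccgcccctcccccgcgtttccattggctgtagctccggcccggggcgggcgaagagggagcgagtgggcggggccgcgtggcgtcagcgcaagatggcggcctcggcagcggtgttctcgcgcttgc
TOMM22, chr22:38681707-38682006, plus strand: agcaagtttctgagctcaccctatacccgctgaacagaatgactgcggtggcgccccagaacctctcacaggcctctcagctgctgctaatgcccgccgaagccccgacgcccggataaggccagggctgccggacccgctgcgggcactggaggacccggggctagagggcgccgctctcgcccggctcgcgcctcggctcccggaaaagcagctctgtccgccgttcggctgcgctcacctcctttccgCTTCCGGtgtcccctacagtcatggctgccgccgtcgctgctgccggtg
TIMM10, chr11:57530705-57531004, minus strand: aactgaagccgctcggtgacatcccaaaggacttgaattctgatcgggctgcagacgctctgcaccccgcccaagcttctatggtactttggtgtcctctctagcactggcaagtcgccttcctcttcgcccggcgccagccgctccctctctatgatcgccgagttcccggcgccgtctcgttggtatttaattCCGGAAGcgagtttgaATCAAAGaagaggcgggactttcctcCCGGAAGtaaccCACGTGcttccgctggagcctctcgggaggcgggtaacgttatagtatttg
TOMM20, chr1:235128788-235129087, minus strand: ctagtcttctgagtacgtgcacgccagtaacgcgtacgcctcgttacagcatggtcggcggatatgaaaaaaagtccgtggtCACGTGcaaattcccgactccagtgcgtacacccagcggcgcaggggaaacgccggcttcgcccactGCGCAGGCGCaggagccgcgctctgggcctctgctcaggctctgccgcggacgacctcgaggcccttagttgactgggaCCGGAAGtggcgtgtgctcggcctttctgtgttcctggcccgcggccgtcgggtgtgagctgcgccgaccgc

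The TIMM21 window held none of the 5 letter sets, and that of TIMM50 held TTCAAAG once, on the opposite strand. In the TIMM10 window CCGGAAG stood at 2 places, ATCAAAG at 1 and CACGTG at the gene start. The TOMM20 window held CACGTG, the NRF1 motif and CCGGAAG. Over the 31 windows, CCGGAAG was present in 13 (41.9%), against 10.7% of the first listed windows of all 27305 genes. The NRF1 motif was present in 6 (19.4%, against 6.28%) and CACGTG in 4 (12.9%, against 7.43%). ATCAAAG was in 3 (9.68%, against 2.64%) and TTCAAAG in 2 (6.45%, against 4.53%). TIMM23 and TIMM23B, near-identical copies, are 2 of the 3 genes with ATCAAAG and 2 of the 13 with CCGGAAG. The 27305 windows were not limited to the 12939 genes tested, so the import genes are set against a wider set that includes genes not tested. Median GC content was 65.0% in the import genes' windows and 58.3% in all windows, and its part in these shares was not tested. CCGGAAG was in 5 of 18 windows of genes called lower, 2 of 4 called higher and 5 of 8 not called, and in that of TIMM23, which was not tested. Of the 18 windows of genes called lower, CACGTG was in 1, the NRF1 motif in 4, ATCAAAG in 1 and TTCAAAG in 2. In the 4 called higher these were in 2, 1, 0 and 0, and in the 8 not called in 1, 1, 1 and 0. These are matches of letters, not binding sites.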

How the data were processed

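The deposited values are log2 expression, 1 per probe set and array, with a floor at 4 as log2(signal + 16) would give; this form was read from the values. MAS5 and PLIER are named, without roles or versions, per the submitters' processing notes; how arrays were normalized against each other is not stated there. The offset of 16 makes folds understate changes of dim probe sets.

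Control probe sets (62 of 54675) were left out. A probe set was assigned to a gene where the platform annotation gave 1 symbol (41091 probe sets, 41037 found in RefSeq by gene ID). A gene was read by its brightest probe set and tested if its mean over 6 arrays reached 5.49, the median of all probe sets; 12939 genes were tested and 6836 were not. The 2 groups were tested with limma 3.58.1 in R 4.3.3 (lmFit, eBayes with intensity trend, two-sided, Benjamini-Hochberg, threshold 0.05), tested on simulated data. Changes are beta-catenin shRNA minus control. The number of arrays limits the precision. Single values were compared by exact two-sided permutation.

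The members and lists were chosen with earlier results of these data known. Values in every array are given for up to 3 called members of each complex by adjusted p, for members that rose, and for tested paralog pairs. Up to 3 called genes are named per other list. The promoter motifs were chosen after the values were seen. Alternatives changed normalization, filter, probe set, variance model, threshold, replicate block, or left out 1 array.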

Additional observations from a re-analysis of the deposited data

Results flagged for a closer look

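Outside the comparisons, 6 probe sets name an import gene together with another gene and were not assigned to either. Of these, 5 were called lower and 1 higher in the knockdown (limma, adjusted over all probe sets, of which 9.95% were called lower and 13.3% higher), with changes of -0.80 to 0.33 and a median of -0.65. They were set apart because their annotation names more than 1 gene, whatever their signal, and they enter none of the gene counts above. Those of TIMM23 and TIMM23B were already described with the TIM23 complex. The 3 that name both TIMM23 and TIMM23B changed by -0.70, -0.66 and -0.80, the 2 that name TOMM6 and PRICKLE4 by -0.57 and -0.64, and the 1 that names TOMM7 and C4orf46 by 0.33. Which gene each one reads was not tested. No group held enough arrays for a search for single outlying arrays.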

How the results depend on the processing

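The count of import genes called lower was 16 to 21 and that called higher 3 to 5 in all alternatives except the test against a 1.2-fold change. The number of import genes tested was 30 to 34 in these alternatives. The count of 16 lower is of 30, with probe sets marked _x_ or _s_ read last. Of all genes tested, 14.5% to 30.5% were lower and 17.5% to 30.8% higher in the same alternatives. With the test against a 1.2-fold change 11 import genes were lower and 1 higher, where 11.3% of all genes tested were lower and 10.6% higher. Member probe sets gave 20 lower and 3 higher, beside 4.36% lower and 4.87% higher of all probe sets. In the other lists 25 genes were lower and 6 higher, against 11.3% and 10.6% of all genes. Small changes no longer count in that test. Quantile normalization gave 14 higher and 44 lower of the 77 genes in the other lists, where 24.1% of all genes were higher and 24.8% lower. The median change of the import genes was -0.28 when each gene's probe sets were averaged and -0.26 when those marked _x_ or _s_ were read last; the cause was not tested. Leaving out 1 array in turn gave medians of -0.44 to -0.31, the smallest without control replicate 1, with 18 to 21 import genes lower and 3 to 4 higher. Under these rules TIMM10B turned to 0.32, past the threshold (adjusted p = 0.0246), and TIMM8B to 0.18, not past it (marked ones last), and TIMM8A to -0.24, past it (averaged). CTNNB1 stayed lower in every setting, at -0.36 when its probe sets were averaged and -1.38 to -1.29 without 1 array. Of the 25 called import genes, 11 kept call and direction in every setting in which they were tested, the 1.2-fold test included. For TOMM20, TOMM22, TOMM40, TIMM22, GRPEL1 and SAMM50 the rule with marked ones last read the same probe set, so it was no further check. TOMM40 has a single probe set, so averaging left its change as it was. The replicate numbers did not pair the arrays (same-number correlations of deviations -0.0938, -0.264 and -0.304). With the replicate block 19 import genes were lower and 4 higher, against 20.1% lower and 22.4% higher of all genes tested. DNAJC19 and MTX1 lost their calls. TOMM70 (-0.42) and HSPA9 (0.33) gained one when probe sets were averaged, and MTX2 (0.19) under quantile normalization. A brightness filter on probe sets, chosen after seeing the data, gave 33 of 55 member probe sets lower and 7 higher. Of all probe sets past that filter, 19.5% were lower and 24.5% higher. Genes near the floor, such as TIMM8A, are limited by low signal.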
